A study of Mus musculus with 6 samples.

Results

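The genes described are 10 regulators of fat cell formation and markers of lipid storage, taken by symbol, with no threshold on their values. They are the transcription factor genes Pparg, Cebpa, Cebpb, Cebpd and Zfp423 and the lipid genes Lpl, Cd36, Fabp4, Plin2 and Adipoq. All 10 were among the 16671 genes of the table. Their RNA was measured in FAPs (fibro-adipogenic progenitors, the stromal cells around muscle fibres) obtained by flow sorting from hindlimb muscle. The mice were wild type and aged 4 to 5 months. Of the 6 libraries, 3 came from FAPs that received C1q at 100 µg/ml and 3 from FAPs that received vehicle (control). C1q is the recognition protein of the classical complement pathway. No source used here gives the length of the treatment, the sex of the mice or whether each replicate was a separate mouse or culture, so the p-values measure the spread between these libraries, which may be technical.

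FAPs are the main source of fat cells in injured or diseased muscle. In cultured preadipocytes, C/EBPβ and C/EBPδ act early and raise C/EBPα and PPARγ, which maintain each other's expression and switch on the genes of fatty acid uptake and storage. ZFP423 is a zinc finger protein that commits mesenchymal precursors to the fat lineage by raising Pparg.

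Library depth was 24046020 to 31929119 reads on genes with C1q, against 5379209 to 38861152 in controls, and control replicate 3 was the shallowest. FAP markers were abundant. The stromal receptor gene Pdgfra averaged 32857 ± 1308 with C1q and 19529 ± 4229 in controls, and Dcn, which encodes the proteoglycan decorin, averaged 28398 ± 2921 and 13523 ± 4173 (normalised read counts, SD, n = 3 each, here and below). Markers of mature adipocytes were also present: Plin1, which coats the fat droplets of adipocytes, averaged 1321 ± 654.8 with C1q and 972.2 ± 596.8 in controls. Endothelial and macrophage markers were scarce. Over 9 endothelial genes the summed counts were 589.4 to 1286 with C1q and 616.4 to 1386 in controls. Over 8 macrophage genes they were 207.1 to 633.5 with C1q and 167.2 to 281.8 in controls. Tek, named after its value was seen, held 480 to 1175 of the endothelial sum with C1q and 506 to 963 in controls. Control replicate 2 stood out among controls 1, 2 and 3 for Pecam1 (0.583, 95 and 0) and Cdh5 (26.8, 160 and 29.8). With C1q these genes stood at 4.93 to 13.6 and 28.9 to 47.8. Muscle lineage markers were plentiful and lower with C1q, at 15201 to 23644 against 25715 to 83848 in controls over 9 genes, of which 6 fell and none rose by the test below. Of the 8 FAP markers 5 rose and 1 fell. Their summed count was 349033 to 442832 with C1q and 228243 to 267623 in controls. Col1a1 alone held 228338 to 330202 of that with C1q and 144213 to 166383 in controls. Its call (limma-trend adjusted p 0.0287) was lost when any 1 of 4 libraries was left out. It was also lost once the dependence of fold changes on transcript length was removed (0.208). Ly6a and Cd34 were not called (adjusted p 0.336 and 0.512). By that test 19.7% of all genes were called higher and 18.7% lower. Markers of mural cells rose for 3 of 6, of Schwann cells for 2 of 4, and of tenocytes for 1 of 3, with 1 lower (2 higher with a block for the replicate number, which adds Mkx, named after its value was seen). None of 8 adipocyte, 9 endothelial or 8 macrophage markers was called (limma-trend), and none had an unadjusted p below 0.05. A block for the replicate number called Cfd (adipocyte) and Lyz2 (macrophage) higher and Emcn (endothelial) lower, while edgeR and DESeq2 called 0 in these lists. Lyz2 and Emcn were named after their values were seen. Pax7, the muscle stem cell factor, stood at 1.49 to 3.52 with C1q and 0 to 7.58 in controls. MuSCs are named in the extraction protocol of the labels, although the cell type given there is FAPs. In bulk RNA, fewer cells of a type and less RNA per cell cannot be told apart.

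Of the 10 genes, Cebpb and Lpl fell with C1q and none rose. Cebpb fell by 47.5% and Lpl fell by 29.4%. Plin2 was lower in every same-numbered pair of libraries but missed the threshold. Pparg, Cebpa, Cebpd, Zfp423, Cd36, Fabp4 and Adipoq were not called, and the 95% interval of each included 0. The threshold was an adjusted p below 0.05 in limma-trend on log2(value + 1), adjusted over all genes. In that test 38.3% of all genes were called, 19.7% higher and 18.7% lower, so 2 called members of 10 is a smaller share than among all genes. No member rose at an unadjusted p below 0.05, and 3 were lower at it. The counts were 0 higher and 3 lower with edgeR, with DESeq2 and with a block for the replicate number, because each of these also called Plin2. With the block 41.0% of all genes were called, 21.3% higher and 19.7% lower. Without control replicate 3 the 2 called members were Cebpb and Plin2.

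**Figure D1:**
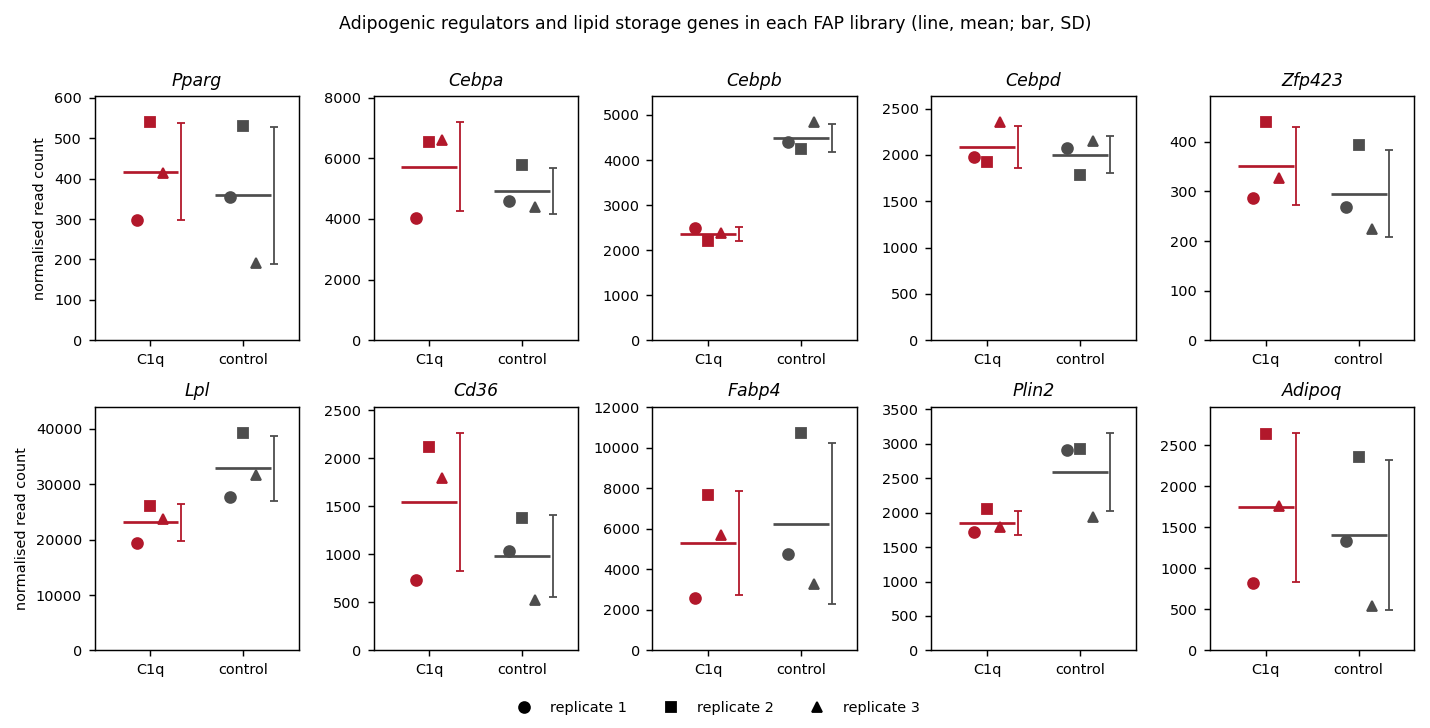
Normalised read count (linear axis from 0) of the 10 genes in the 3 C1q libraries and the 3 control libraries, 1 panel a gene, with the marker shape giving the replicate number, the horizontal line the mean and the bar the SD. The C1q libraries of Cebpb lie between 2203 and 2497 and its control libraries between 4239 and 4833, while for Adipoq, Fabp4, Cd36 and Pparg replicate 2 is the highest library of each group.

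The windows just before the annotated starts of 5 members are shown. They include the firmest fall (Cebpb) and the call that depends on the test (Plin2). The other 3 are Pparg, Cd36 and Adipoq, of the 6 members that varied together between libraries. Plin2, Zfp423 and Fabp4 were also among those 6. Fabp4 had no window, and those of Zfp423 are not printed. Sequences are from RefSeq on GRCm38.p6, in which 7 of the 10 members had a window. Each covers the 250 bases upstream of a start, read 5′ to 3′ on the gene's own strand. Capitals mark matches on either strand to TGACG (the core of a cAMP response element), TTGCNNAA (a C/EBP-type site), CCAAT or TATAAA. Cebpb is chr2:167688665-167688914 (plus strand), Plin2 is chr4:86670060-86670309 (minus strand), the third annotated start of Pparg is chr6:115421816-115422065 (plus strand), Cd36 is chr5:17835897-17836146 (minus strand) and Adipoq is chr16:23146286-23146535 (plus strand).
Cebpb: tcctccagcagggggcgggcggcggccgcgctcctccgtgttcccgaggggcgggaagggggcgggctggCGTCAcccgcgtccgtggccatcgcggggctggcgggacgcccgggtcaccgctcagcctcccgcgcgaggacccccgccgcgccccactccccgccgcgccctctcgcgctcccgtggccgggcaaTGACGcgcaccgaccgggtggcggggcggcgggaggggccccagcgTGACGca
Plin2: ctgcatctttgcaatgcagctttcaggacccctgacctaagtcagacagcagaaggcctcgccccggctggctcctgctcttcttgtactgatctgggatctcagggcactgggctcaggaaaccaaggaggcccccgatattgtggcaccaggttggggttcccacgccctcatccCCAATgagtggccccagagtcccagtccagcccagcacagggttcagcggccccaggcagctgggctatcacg
Pparg: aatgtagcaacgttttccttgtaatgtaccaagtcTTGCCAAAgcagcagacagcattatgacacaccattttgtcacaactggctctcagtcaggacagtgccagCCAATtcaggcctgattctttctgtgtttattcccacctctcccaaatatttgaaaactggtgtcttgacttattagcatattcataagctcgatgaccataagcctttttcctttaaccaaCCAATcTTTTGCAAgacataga
Cd36: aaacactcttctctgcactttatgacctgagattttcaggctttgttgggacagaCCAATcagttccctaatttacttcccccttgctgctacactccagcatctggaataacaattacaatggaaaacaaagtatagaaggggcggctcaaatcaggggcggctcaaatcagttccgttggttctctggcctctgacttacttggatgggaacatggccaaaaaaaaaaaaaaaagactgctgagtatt
Adipoq: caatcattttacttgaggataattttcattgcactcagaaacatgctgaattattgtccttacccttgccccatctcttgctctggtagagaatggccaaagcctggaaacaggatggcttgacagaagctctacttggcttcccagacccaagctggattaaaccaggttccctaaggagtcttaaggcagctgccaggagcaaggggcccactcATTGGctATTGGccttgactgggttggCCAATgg
The Cebpb window held 3 matches to TGACG, beginning 180, 53 and 7 bases before the start. At least 1 match to TGACG lay in 17.8% of all 32851 windows of this length. The windows of the other two Pparg starts held no match to TTGCNNAA, and the third start was picked for printing with the matches of all 3 known. It held 2 matches to TTGCNNAA, beginning 215 and 16 bases before the start, against 9.56% of all windows with at least 1. The window of the second Zfp423 start held 1 match to TTGCNNAA, beginning 131 bases before the start. The Adipoq window held 3 matches to CCAAT, a sequence present in 33.8% of all windows. TATAAA, in 12.4% of all windows, had no match in these 5 but 1 in the window of the second Pparg start, and a full PPAR response element (AGGTCA, any 1 base, AGGTCA) occurred in 0.0335% of all windows and in none of the members'. Matches of different motifs did not overlap in these 5 windows. A match is a run of letters, and binding was not measured here.

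Cebpb encodes C/EBPβ, an early activator that also answers to cAMP and inflammatory signals (Entrez gene 12608, chromosome 2, 167688915 to 167690432 in GRCm38, as for all coordinates here). Its normalised read counts were 2497, 2203 and 2373 in C1q replicates 1, 2 and 3, against 4404, 4239 and 4833 in control replicates 1, 2 and 3. Every C1q library lay below every control library, as was so, in either direction, for 52.1% of all genes. The log2 fold change was -0.93 ± 0.08 (SE) with an adjusted p of 2.65e-04. Leaving out any single library gave -0.97 to -0.88 with adjusted p of 3.83e-04 to 0.00244, and -0.66 was left once the dependence of fold changes on transcript length was removed (called the length trend below). Exons of Tmem189 overlap 312 bases of Cebpb on the opposite strand, and without a stated strand setting their reads cannot be separated. Tmem189 was itself lower, at 884.3 ± 12.54 with C1q and 1266 ± 103.5 in controls (adjusted p 0.00175).

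Cebpd and Cebpa, the other C/EBP genes of the set, did not move with Cebpb. Cebpd, which encodes the early factor C/EBPδ (Entrez gene 12609, chromosome 16, 15887286 to 15889545), stood at 1982, 1923 and 2350 with C1q and at 2080, 1780 and 2151 in controls. The groups overlapped in part, with C1q replicate 3 the highest and control replicate 2 the lowest of the 6 libraries. The log2 fold change of 0.06 ± 0.10 had a 95% interval of -0.19 to 0.30 (adjusted p 0.703), so a change as large as that of Cebpb lies outside the interval. Spidr overlaps 562 bases of Cebpd on the opposite strand and rose, at 619.9 ± 33.74 with C1q and 445.8 ± 58.62 in controls (adjusted p 0.0121). Cebpa, which encodes the later factor C/EBPα (Entrez gene 12606, chromosome 7, 35119293 to 35121928), stood at 4040, 6538 and 6589 with C1q and at 4577, 5789 and 4408 in controls. Its log2 fold change was 0.19 ± 0.20 with an interval of -0.28 to 0.66 (adjusted p 0.487). C1q replicate 1 was the lowest of the 6 libraries and the other C1q libraries were the highest, so the C1q group spanned the control group. Exons of Gm45091 overlap 51 bases of Cebpa on the opposite strand.

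Pparg encodes PPARγ, the nuclear receptor that drives fat cell formation (Entrez gene 19016, chromosome 6, 115360879 to 115490404). Its counts were 298, 539 and 414 with C1q and 355, 530 and 191 in controls. Replicate 2 was the highest library in both groups and the ranges overlapped. The log2 fold change of 0.29 ± 0.37 had an interval of -0.56 to 1.15 (adjusted p 0.563, and 0.383 with the replicate block). Control replicate 3 rests on 45 reads, with a counting interval of 140 to 256 normalised counts (exact Poisson, 95%), still below the other controls. Without that library the log2 fold change of Pparg was -0.10. Zfp423 (Entrez gene 94187, chromosome 8, 87661810 to 87962053) stood at 287, 439 and 327 with C1q and at 269, 393 and 225 in controls. It was higher with C1q in all 3 same-numbered pairs, by 0.10, 0.16 and 0.54 on the log2 scale, but was not called (0.26 ± 0.23, adjusted p 0.406).

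Lpl encodes lipoprotein lipase, the secreted enzyme that frees fatty acids from circulating triglycerides (Entrez gene 16956, chromosome 8, 68880555 to 68906932). Its counts were 19484, 26129 and 23818 with C1q, against 27652, 39334 and 31658 in controls. The groups did not overlap, though the highest C1q library came close to the lowest control library. The log2 fold change was -0.50 ± 0.16 with an adjusted p of 0.0453, and the difference was similar within same-numbered pairs (-0.51, -0.59 and -0.41), so the replicate block gave an adjusted p of 0.00625. The call was lost without C1q replicate 1 (0.153), C1q replicate 2 (0.0542), C1q replicate 3 (0.0966), control replicate 2 (0.106) or control replicate 3 (0.0654), and was kept without control replicate 1 (0.0304).

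Plin2 encodes perilipin 2, the coat protein of lipid droplets in most cells (Entrez gene 11520, chromosome 4, 86626910 to 86670217). It stood at 1717, 2046 and 1797 with C1q and at 2913, 2930 and 1938 in controls. Control replicate 3 lay within the C1q range and the other controls well above it. The log2 fold change of -0.46 ± 0.16 missed the threshold (adjusted p 0.0580). It passed with the replicate block (0.0235), with edgeR under TMM scaling (0.0328), with DESeq2 (0.00963) and without control replicate 3 (0.00140, log2 fold change -0.66). With the length trend removed it was -0.31 (adjusted p 0.188).

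Cd36 and Fabp4 act in fatty acid uptake, and both are also made by capillary endothelium and macrophages. Cd36, the fatty acid translocase gene (Entrez gene 12491, chromosome 5, 17781690 to 17888959), stood at 738, 2115 and 1791 with C1q and at 1039, 1381 and 527 in controls. Its log2 fold change had the largest size among the uncalled members, 0.63 ± 0.46, but ranged from 0.23 without control replicate 3 to 1.09 without C1q replicate 1 (adjusted p 0.320). The pairs went both ways, at -0.49, 0.61 and 1.76 for replicates 1, 2 and 3. Fabp4, whose product carries fatty acids in the cytoplasm of adipocytes (Entrez gene 11770, chromosome 3, 10204342 to 10208616), stood at 2590, 7658 and 5675 with C1q and at 4754, 10741 and 3256 in controls. Its log2 fold change of -0.19 ± 0.51 (adjusted p 0.798) became 0.26 without C1q replicate 1, 0.30 without control replicate 2 and 0.35 with the length trend removed. The direction of Fabp4 thus turned with 1 library left out.

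Adipoq encodes adiponectin, a hormone secreted by fat cells (Entrez gene 11450, chromosome 16, 23146536 to 23157968). Its counts were 824, 2643 and 1765 with C1q and 1329, 2357 and 540 in controls. The highest library exceeded the lowest 3.21-fold with C1q and 4.36-fold in controls, the widest range of the 10 genes in both groups. The log2 fold change of 0.39 ± 0.58 had an interval of -0.95 to 1.74 (adjusted p 0.625), and leave-one-out values ran from -0.18, with control replicate 3 removed, to 0.89, with control replicate 2 removed.

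**Figure D2:**
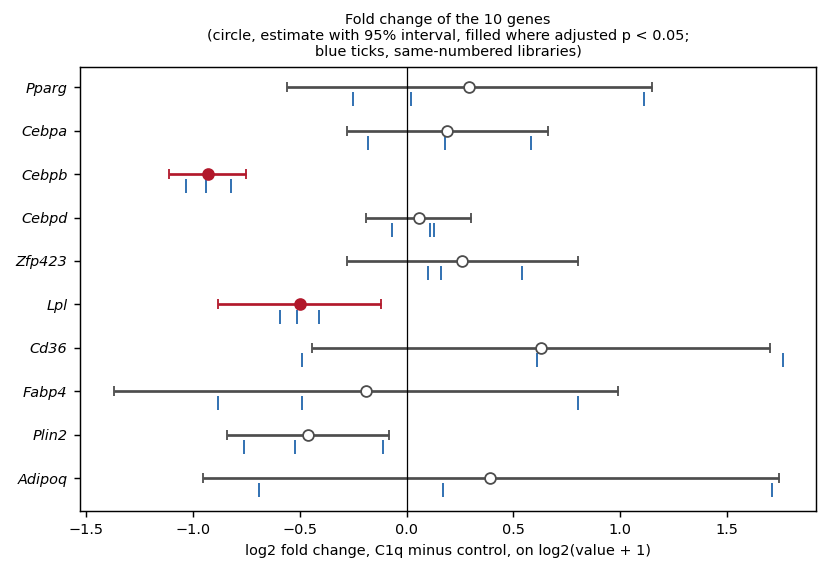
Log2 fold change of each gene, C1q minus control on log2(value + 1), with its 95% interval from limma, filled red where the adjusted p was below 0.05. The blue ticks are the differences within same-numbered libraries, which lie close together for Cebpb (-1.03 to -0.82) and Lpl (-0.59 to -0.41) and far apart for Adipoq (-0.69 to 1.71) and Cd36 (-0.49 to 1.76).

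Compared per length of transcript, Fabp4 and Lpl were the most abundant of the 10 in both groups and Zfp423 the least. Fabp4 averaged 5924 ± 2850 and Lpl 5624 ± 820 normalised counts per kilobase with C1q, against 6976 ± 4420 and 7991 ± 1443 in controls, and the ranges of the pair overlapped in each group. Cebpb held the next place in controls, at 2987 ± 204 per kilobase, above every library of Cebpa at 1875 ± 287. With C1q, Cebpa at 2179 ± 555 and Cebpb at 1568 ± 98.3 per kilobase overlapped. Pparg stood at 196.2 ± 56.7 per kilobase with C1q and 168.8 ± 79.6 in controls, below Cebpd and overlapping only Cd36. Zfp423 stood at 71.55 ± 16 and 60.25 ± 17.7, below every library of Pparg.

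The spread between libraries of a group was large for 4 of the 10 members, and 6 members ran in the same order. The within-group SD on the log2 scale was 0.97 for Adipoq, 0.84 for Fabp4, 0.77 for Cd36 and 0.60 for Pparg, against a median of 0.12 and a 95th percentile of 0.44 over the 10962 genes with a mean of at least 100. Cebpb, at 0.09, was the 1 member below that median. Pparg, Zfp423, Cd36, Fabp4, Plin2 and Adipoq were each highest in replicate 2 of both groups and lowest in C1q replicate 1 and control replicate 3. That order was shared by 6 of the 10 members, 11 of 12 other mature adipocyte markers and 4.79% of all genes. The order counted is the one seen in these same genes, so their shares describe it and do not test it.

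**Figure D3:**
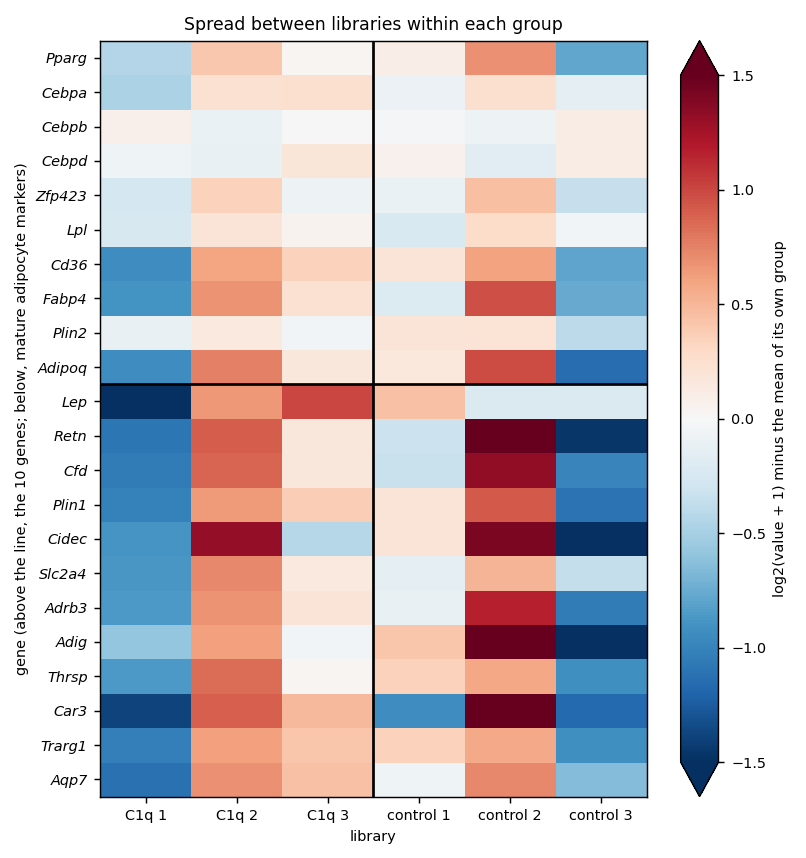
Log2(value + 1) of each gene in each library minus the mean of that library's own group (colour, clipped at 1.5), with the C1q libraries left of the controls, the 10 genes above the horizontal line and 12 further mature adipocyte markers below it. Replicate 2 of each group is high and C1q replicate 1 and control replicate 3 are low for most adipocyte markers and for Adipoq, Fabp4, Cd36 and Pparg, whereas Cebpb and Cebpd stay within 0.18 of their group means.

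Among the other mature adipocyte markers, 11 of the 12 thus had the same highest and lowest libraries as those 6 members. The summed count over the 12 was 3066, 11730 and 8154 in C1q replicates 1, 2 and 3, against 2705, 7740 and 1437 in control replicates 1, 2 and 3. None of the 12 was at 0 in every library, and Lep, the leptin gene, was the nearest to absence, at 0, 3.90 and 5.23 with C1q and 0.583, 0 and 0 in controls. Of the 13 markers measured, Adipoq included, 1 rose and 0 fell (limma-trend, and likewise at an unadjusted p below 0.05, with edgeR and with DESeq2). That is 7.69%, against 38.3% of all genes. The median log2 fold change was 0.78, against 0.03 over all genes. As 11 of the 12 others shared 1 order across libraries, that median does not rest on independent genes. Without control replicate 3 the log2 fold change was -0.05 for Plin1, -0.18 for Adipoq, 0.25 for Cidec, 0.96 for Cfd, 1.31 for Lep and 1.46 for Thrsp. The 1 that rose was Thrsp, a lipogenic nuclear protein gene, at 41.12 ± 23.5 with C1q and 9.935 ± 5.048 in controls (log2 fold change 1.92, adjusted p 0.0291), a call lost without C1q replicate 2 (0.105) or 3 (0.0839). With the replicate block 3 rose, the added genes being Cfd (log2 fold change 1.46, adjusted p 0.117 without the block and 0.0139 with it) and Car3 (1.78, 0.171 and 0.0261). Car3 was named after its value was seen. Cfd, the adipsin gene, averaged 2569 ± 1507 with C1q and 1032 ± 882.9 in controls, and was also called without control replicate 2 (log2 fold change 2.12, adjusted p 0.0242). Cidec, a droplet fusion protein gene, averaged 209.1 ± 179.3 with C1q and 109.8 ± 95.23 in controls. Its log2 fold change of 1.05 missed the threshold (adjusted p 0.346) and was 0.39 without C1q replicate 2, 1.76 without control replicate 2 and 0.25 without control replicate 3. Summed endothelial and macrophage markers were also highest in replicate 2 of both groups. In replicates 1, 2 and 3 the endothelial sum was 987.1, 1286 and 589.4 with C1q and 731.3, 1386 and 616.4 in controls. The macrophage sum was 207.1, 633.5 and 260.7 with C1q and 167.2, 281.8 and 233.8 in controls. The endothelial sum was lowest in replicate 3 of both groups and the macrophage sum in replicate 1. Each order largely follows 1 gene. In replicates 1, 2 and 3 Tek held 908, 1175 and 480 of the endothelial sum with C1q and 678, 963 and 506 in controls. Lyz2 held 154, 462 and 208 of the macrophage sum with C1q and 43.7, 164 and 136 in controls. Whether varying numbers of adipocytes, differentiating FAPs, endothelial cells or macrophages affect Adipoq, Fabp4, Cd36 and Pparg was not tested.

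Pparg works with partner receptors, coactivators and corepressors. Of 15 nuclear receptors and coregulators of the PPAR group, 6 rose and 1 fell, or 46.7% against 38.3% of all genes. The median log2 fold change was 0.29, but with the length trend removed 2 rose and 2 fell. Nrip1, a corepressor, rose to 1405 ± 157.8 with C1q, against 532.6 ± 157.7 in controls (log2 fold change 1.43, adjusted p 0.00132). Ncoa2, a coactivator, rose to 1945 ± 97.44, against 1004 ± 65.72 in controls (0.95, adjusted p 2.18e-04). The corepressor gene Ncor1 was higher by 0.43, but at -0.11 once the length trend was removed. Ppard, the widely expressed PPARδ gene, fell to 1103 ± 24.42, against 1310 ± 53.99 in controls (-0.25, adjusted p 0.0178), a call lost without C1q replicate 1 (0.0700), 2 (0.0694) or 3 (0.0510). Ppara (135.3 ± 23.67 with C1q and 102.7 ± 4.482 in controls) and the partner receptor gene Rxra (4835 ± 279.7 and 4745 ± 189.4) were not called, and Rxra was at -0.22 with an adjusted p of 0.0438 once the length trend was removed.

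Among 19 measured genes of the C/EBP family and other early activators, 6 rose and 3 fell, Cebpb among those 3 (median 0.19, and 3 and 3 with the length trend removed). The called share was 47.4%, against 38.3% of all genes. Ebf2, an early B cell factor that acts in committed fat precursors, rose to 1572 ± 251 with C1q, against 595.6 ± 26.14 in controls (log2 fold change 1.39, adjusted p 2.59e-04). Its relative Ebf1 averaged 4275 ± 675.8 and 2419 ± 601.5 (0.84, adjusted p 0.00871, and 0.0794 with the length trend removed). Nr3c1, the glucocorticoid receptor gene, and Stat5b rose by 0.62 and 0.58. Klf9 fell to 1183 ± 46.61, against 2095 ± 95.24 in controls (-0.82, adjusted p 2.27e-04). Klf4, Klf5 and Srebf1 were not called, at 0.19, -0.42 and 0.14, and Klf5 was called lower without control replicate 3 (-0.66, adjusted p 0.0374).

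Genes known to restrain fat cell formation moved in both directions, with 5 of 15 higher and 3 lower (median 0.19, and 3 higher and 2 lower with the length trend removed). Called genes made up 53.3% of this list, against 38.3% of all genes. Zfp521, which encodes an antagonist of ZFP423 and EBF1, rose to 4266 ± 196.5 with C1q, against 2291 ± 150.6 in controls (log2 fold change 0.90, adjusted p 2.45e-04). Dlk1, the preadipocyte factor Pref-1, rose to 2409 ± 114.6, against 1191 ± 526.9 in controls (1.10, adjusted p 0.0126), and Klf3 rose by 0.85. Lower were Twist2 (381 ± 72.78 with C1q and 774.8 ± 126.5 in controls, adjusted p 0.00262), Tgfb1 (1213 ± 150.1 and 1873 ± 237.3) and Ddit3, the CHOP gene, whose product blocks C/EBP proteins (355.4 ± 19.1 and 625.9 ± 178.2, adjusted p 0.0120). Ddit3 was at -0.24 with an adjusted p of 0.339 once the length trend was removed.

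**Figure D4:**
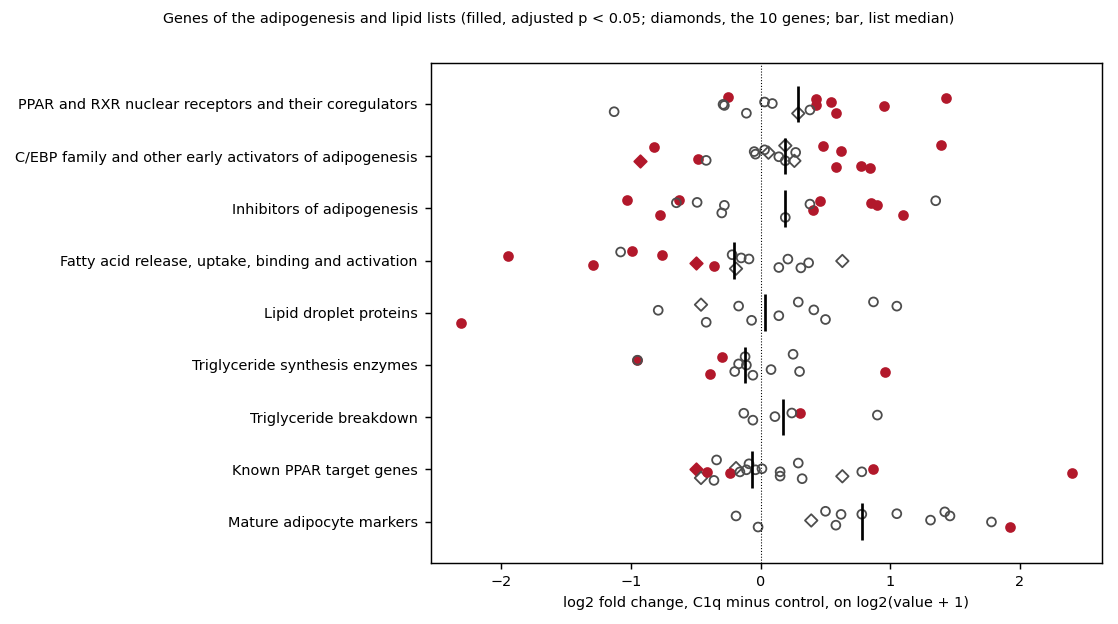
Log2 fold change, C1q minus control on log2(value + 1), of every measured gene in 9 lists around adipogenesis and lipid storage, filled red where the adjusted p was below 0.05, with diamonds for the 10 genes and a bar at the list median. Called genes lie on both sides of 0 for the regulators, and the called genes of fatty acid uptake and binding all lie below 0.

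Genes of fatty acid release, uptake, binding and activation were called in 1 direction, 6 of 16 lower and 0 higher (median -0.20). The called share of 37.5% was close to the 38.3% of all genes. With the length trend removed 4 were lower and 0 higher. At an unadjusted p below 0.05, 1 was higher, edgeR and DESeq2 called 0 higher, and the replicate block called Slc27a1 higher (0.37, adjusted p 0.0736 without the block and 0.0208 with it), named after its value was seen. Lpl was 1 of the 6. Dbi, the acyl-CoA binding protein gene, fell to 2609 ± 184.6 with C1q, against 5179 ± 382.3 in controls (log2 fold change -0.99, adjusted p 2.62e-04), and was at -0.26 with an adjusted p of 0.0502 once the length trend was removed. Fabp3, the fatty acid binding protein gene of heart and skeletal muscle, fell to 72.55 ± 11.57, against 287.1 ± 71.49 in controls (-1.95, adjusted p 5.96e-04). Fabp5 (86.98 ± 21.97 with C1q and 225.3 ± 105.2 in controls, -1.29) lost its call without C1q replicate 1 (adjusted p 0.0732) and with the length trend removed (0.116), and Acsl3, which activates fatty acids, was lower by -0.76 (adjusted p 0.00793). The muscle gene Myod1 stood at 236, 271 and 268 with C1q and 1386, 686 and 451 in controls, and the part of muscle cells in the values of Fabp3 and Lpl was not tested.

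Lipid droplet proteins coat and shape the stores that triglyceride enzymes fill. Of 12 droplet protein genes, 1 fell and 0 rose, by limma-trend as at an unadjusted p below 0.05 for rises, while edgeR, DESeq2 and the replicate block each called 3 lower and 0 higher. By limma-trend the called share was 8.33%, against 38.3% of all genes. The gene that fell, Fitm1, a droplet-forming protein gene mainly of skeletal muscle, averaged 8.17 ± 4.745 with C1q and 48.88 ± 30.88 in controls (log2 fold change -2.31, adjusted p 0.0195). It lost its call without C1q replicate 1 (0.0673) or 3 (0.0676) or control replicate 1 (0.0623) or 2 (0.0632), and was at -2.93 without control replicate 3. Of 13 triglyceride synthesis enzymes, 1 rose and 3 fell, or 30.8% against 38.3% of all genes, and 1 rose and 6 fell with the length trend removed. Gpam, the first enzyme of glycerolipid synthesis, rose to 765 ± 112.2 with C1q, against 391.8 ± 39.57 in controls (0.96, adjusted p 0.00121). Agpat1 (-0.39), Lpin3 (-0.95) and Lpin1 (-0.30) fell, and Lpin1 lost its call without C1q replicate 1 (0.104) or 3 (0.0831) or control replicate 1 (0.0667) or 2 (0.0871). The final enzymes Dgat1 (748.6 ± 126.2 with C1q and 857.6 ± 123.1 in controls) and Dgat2 (387.1 ± 139.5 and 439.5 ± 185.9) were not called, with adjusted p of 0.339 and 0.740.

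Of 6 triglyceride breakdown genes, 1 rose, or 16.7% against 38.3% of all genes. It was the lysosomal acid lipase gene Lipa, at 3201 ± 274.1 with C1q and 2590 ± 177.5 in controls (log2 fold change 0.30, adjusted p 0.0267). That call was lost without C1q replicate 1 (0.0979) or 2 (0.0998) or control replicate 2 (0.0701) or 3 (0.0527). The cytoplasmic lipase genes Pnpla2 (2566 ± 1011 with C1q and 2173 ± 846.6 in controls) and Lipe (1016 ± 324.1 and 1028 ± 175.9) had adjusted p of 0.640 and 0.868. Of 20 known PPAR targets, 2 rose and 3 fell, or 25% against 38.3% of all genes (median -0.07). Pdk4, a kinase that shuts off glucose oxidation, rose to 1213 ± 249.3 with C1q, against 670.2 ± 187.4 in controls (log2 fold change 0.87, adjusted p 0.0155, and 0.0544 without C1q replicate 1). Besides Lpl, the mitochondrial fatty acid genes Acaa2 and Slc25a20 were lower by -0.41 and -0.24, calls lost with the length trend removed (adjusted p 0.313 and 0.573). Acaa2 was not called without C1q replicate 2 (0.0534) or 3 (0.0670), and Slc25a20 lost its call without any 1 library other than control replicate 2 (0.0557 to 0.135) and with DESeq2 (0.0663). Angptl4, an inhibitor of lipoprotein lipase, stood at 6473, 4798 and 6282 with C1q and 6707, 4688 and 7852 in controls, with overlapping groups (-0.11, adjusted p 0.686).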

How the data were processed

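RNA was measured in 6 libraries. Per the labels' protocols, cDNA for each was made from 10 ng of RNA by a SMART-Seq kit for low input. The deposited values, which the file headers present as featureCounts output, are a normalised signal, in which the reads of each Entrez gene were divided by a size factor of the library. The submitters' processing notes name build mm10 and the tools DESeq2, featureCounts, HISAT2 and Trimmomatic. No source used here states their versions, roles or strand setting. In each library every value is a whole multiple of the worth of 1 read (100% of values within 0.001 of a whole read), so the reads were recovered. A read is worth 4.251 normalised counts in control replicate 3 and 0.5827 to 0.9746 in the others.

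In R 4.3.3, C1q was compared with control on log2(value + 1) by limma-trend, from limma 3.58.1, with Benjamini-Hochberg adjustment over all 16671 genes. Fold changes are on that scale, and for genes with low values they depend on the added 1. They could be smaller or larger there than those of edgeR with TMM scaling. Lep was at 1.42 against 2.88 in edgeR, and Thrsp at 1.92 against 1.78. For Pecam1 the sign differed, at 0.67 against -2.25. The reads served for edgeR 4.0.16 and DESeq2 1.42.0, which called 3368 and 3262 genes higher and 3513 and 3206 lower, against 3277 and 3112 in the main test. Other alternatives were pseudocounts of 0.5 and 5, a minimum mean of 10, a block for the replicate number, omission of each library in turn, and removal of a loess trend on transcript length (span 0.5, fitted to genes whose mean reached 20). The limma (with and without the block), edgeR and DESeq2 fits were tested on simulated data, and the outcome is not used to judge the calls given here. Deviations of same-numbered libraries from their group means correlated at 0.123, 0.175 and 0.132 over all genes, above the limit of 0.1. Pairs by number were therefore used for differences within same-numbered libraries and for the block, which is an alternative. The main test ignores the pairs, and its adjusted p are those given where no other setting is named. The pairing comes from these same data, not from the labels. Replicates of a group differed beyond sampling noise (chi-square per degree of freedom 16.5 to 40.3).

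Symbols and coordinates are RefSeq's for GRCm38.p6 (16077 of 16671 IDs had a symbol), and lengths those of the longest protein-coding GENCODE vM21 transcript, available for 89.6% of genes. The members and the 9 gene lists and 8 marker lists were chosen with earlier results of these data known. The text names all members, up to 4 called genes of lowest p in each list and 19 further genes laid down by name. It also names cell type markers laid down beforehand, and says where others were added after their values were seen. Some genes that this rule names are not reported here. Cebpe, G0s2, Mogat1, Pck1 and Ptprc had no row under those symbols and are not analysed here.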

Additional observations from a re-analysis of the deposited data

How the results depend on the processing

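The fall of Cebpb was called under all 16 alternatives, with log2 fold changes of -0.97 to -0.66. The members called lower numbered 1 to 2 when a library was left out and the members called higher 0. Leaving out 1 library moved the calls over all genes to 2329 to 3659 higher and 2259 to 3583 lower, against 3277 and 3112. With the length trend removed 2019 were higher and 2659 lower, over the 14933 genes with a length and not all 16671. The share of called genes that were higher was then 43.2%, against 51.3% in the main test. The cause was not tested for any of these shifts. With 1 library left out, log2 fold changes ran from -0.10 to 0.63 for Pparg, -0.03 to 0.11 for Cebpd, -0.57 to 0.30 for Fabp4 and -0.18 to 0.89 for Adipoq. Directions of uncalled members turned for Cebpd (-0.07 with the length trend removed, with or without the block, and -0.03 without C1q replicate 3 or control replicate 2), Fabp4 (0.35 with the length trend removed, with or without the block, 0.26 without C1q replicate 1 and 0.30 without control replicate 2), Pparg (-0.10 without control replicate 3) and Adipoq (-0.18 without control replicate 3).

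With the length trend removed, PPAR receptors and coregulators had 2 higher and 2 lower (2 and 3 with the replicate block), early activators 3 higher, inhibitors of adipogenesis 3 higher (3 with the block), droplet proteins 0 lower, and triglyceride synthesis 6 lower (6 with the block). With the block and the length trend removed, fatty acid uptake had 1 higher and mature adipocyte markers 4 higher. With the replicate block alone, fatty acid uptake had 1 higher, droplet proteins 3 lower, triglyceride breakdown 2 higher, PPAR targets 5 lower and mature adipocyte markers 3 higher. Among the 9 gene lists the block changed no other count by over 1.5 times, and among members it changed the call of Plin2 alone. DESeq2 called 2 PPAR receptors and coregulators lower, 3 droplet proteins lower and 2 triglyceride breakdown genes higher. Droplet proteins called lower numbered 3 with edgeR under TMM or DESeq2 size factors, 4 with filterByExpr and 2 with a minimum mean of 10, and PPAR targets called lower numbered 5 in each edgeR fit. Leaving out 1 library gave 0 to 2 PPAR receptors and coregulators lower (6 higher), 5 to 6 early activators higher and 2 to 4 lower, 5 to 6 inhibitors higher and 3 to 5 lower, and for fatty acid uptake 0 to 1 higher and 3 to 5 lower. It gave droplet proteins 0 to 1 higher and 0 to 3 lower, triglyceride synthesis 2 to 3 lower (1 higher), triglyceride breakdown 0 to 1 higher, PPAR targets 1 to 3 higher and 0 to 3 lower, and mature adipocyte markers 0 to 4 higher. Control replicate 3, with 45 reads of Pparg and 53 of Zfp423, limits the precision of the low genes.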
